A study of Mus musculus with 13 samples.

Results

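A set of 50 leukocyte marker genes was followed in 13 bulk RNA-seq libraries of mouse NUT carcinoma (mNC), each library 1 tumor. The genes were chosen by name, for what each marks, from the 56085 genes of the count table, and all 50 were found. The choice was made with earlier results of these data known. They comprise 1 pan-leukocyte gene, 7 T cell genes, 4 cytotoxic lymphocyte genes, 7 B and plasma cell genes, 14 monocyte and macrophage genes, 5 neutrophil genes, 3 mast cell genes, 4 dendritic and Langerhans cell genes and 5 MHC class II genes. All 13 tumors carried the NCT allele (NCT+/-), from which a Cre driver sets off NUT carcinoma in the tissue where it is active. The 4 oral WT tumors carried KRT14-Cre and the 2 oral KO tumors were labelled KRT4Cre with Sox2fl/fl, whereas the study's methods name only KRT14-Cre for the oral mucosa. The 4 pancreatic WT tumors and the 3 pancreatic KO tumors carried Pdx1-Cre, the latter with floxed Sox2 on both alleles. Tissue and Cre driver therefore cannot be told apart. If the KRT4Cre label is taken as written, Sox2 genotype and Cre driver cannot be told apart in the oral tumors either. This limit would hold for the oral KO against WT comparison and for the difference between tissues. The deletion is restricted to cells in which the driver has been active. These are epithelial drivers, so that leukocytes are not the cells targeted. Neither the strain nor the age of the mice is given in the sources used here.

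Solid tumors contain leukocytes that entered from the blood together with macrophages that reside in the tissue. T cells carry the CD3 complex with CD4 or CD8, cytotoxic lymphocytes store granzymes and perforin, and B cells carry the CD79 signalling pair. Macrophages are the main source of the complement component C1q, whose A, B and C chains start the classical complement cascade when they bind antibodies or cell debris. MHC class II molecules, which are loaded with the help of the invariant chain CD74, present peptides to CD4+ T cells on macrophages, dendritic cells and B cells. In whole tumors, fewer cells of a type and less RNA per cell cannot be told apart.

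Levels are given as CPM, the estimated count per gene relative to the library total after TMM scaling over all 13 tumors. Sequencing depth was unequal between groups. Estimated counts per tumor totalled 29394258 to 40420228 in the oral WT, 11735315 and 20432164 in the oral KO, 40964533 to 46134830 in the pancreatic WT and 89562790 to 120482829 in the pancreatic KO group. The floor of 3 counts used here corresponded to between 0.0249 CPM in a pancreatic KO tumor and 0.256 CPM in oral KO 1. Protein-coding genes took 59.5% of the counts of oral KO 1, 84.5% of those of oral KO 2 and 85.1% to 91.7% in the other 11 tumors. Sox2 stood at 9.04 to 19.7 CPM in the oral WT and 29.1 to 34.1 CPM in the pancreatic WT tumors, and at no more than 0.039 CPM in any KO tumor. Changes are log2 fold changes with a standard error (SE) from edgeR's quasi-likelihood test, adjusted over all genes tested by the Benjamini-Hochberg procedure. A gene was called when its adjusted p was below 0.05 and its log2 fold change exceeded 1 in either direction.

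The promoters of 4 members are shown here because the genes beside them carry the main patterns below. C1qb and C1qc lie with C1qa in 1 cluster on the minus strand at chr4:136880129-136898803 (GRCm38) and kept close proportions in every tumor, whereas H2-Aa and H2-Eb1 lie near each other in the MHC on chromosome 17 and parted. Capitals mark GAGGAA, a core bound by the myeloid factor PU.1, in the first pair, and ATTGG, the CCAAT box in reverse, in the second pair, each searched on both strands, where the 2 motifs do not overlap. On the opposite strand they read TTCCTC and CCAAT.
C1qb promoter: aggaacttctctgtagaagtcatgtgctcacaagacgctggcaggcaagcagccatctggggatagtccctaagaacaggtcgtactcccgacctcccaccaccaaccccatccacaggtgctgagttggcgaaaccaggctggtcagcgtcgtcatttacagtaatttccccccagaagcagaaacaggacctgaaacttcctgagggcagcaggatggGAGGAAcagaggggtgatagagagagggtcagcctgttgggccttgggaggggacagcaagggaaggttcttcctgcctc
C1qc promoter: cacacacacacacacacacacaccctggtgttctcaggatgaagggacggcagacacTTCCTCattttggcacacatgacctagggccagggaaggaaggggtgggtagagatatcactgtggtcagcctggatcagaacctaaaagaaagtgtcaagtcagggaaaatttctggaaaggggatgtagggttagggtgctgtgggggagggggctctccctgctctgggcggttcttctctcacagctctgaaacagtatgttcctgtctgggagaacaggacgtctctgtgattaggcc
H2-Aa promoter: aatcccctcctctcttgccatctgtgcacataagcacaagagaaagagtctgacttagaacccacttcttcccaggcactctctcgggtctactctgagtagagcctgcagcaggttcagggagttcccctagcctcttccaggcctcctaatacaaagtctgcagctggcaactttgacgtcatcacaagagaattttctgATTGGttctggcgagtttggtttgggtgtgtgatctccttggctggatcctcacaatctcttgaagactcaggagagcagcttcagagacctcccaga
H2-Eb1 promoter: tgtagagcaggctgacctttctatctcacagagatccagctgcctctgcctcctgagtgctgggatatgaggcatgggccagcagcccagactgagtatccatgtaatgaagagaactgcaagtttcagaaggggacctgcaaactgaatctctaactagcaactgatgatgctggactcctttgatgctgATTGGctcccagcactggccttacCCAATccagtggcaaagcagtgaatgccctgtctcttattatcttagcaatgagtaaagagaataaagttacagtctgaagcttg
The sequences are from RefSeq (GRCm38.p6), read in the direction of transcription, with 250 bases before and 50 after the start site. They span chr4:136886151-136886450 (minus strand), chr4:136892865-136893164 (minus strand), chr17:34287774-34288073 (minus strand) and chr17:34305617-34305916 (plus strand). GAGGAA began at -30 of C1qb on the same strand and at -193 of C1qc on the opposite strand. ATTGG began at -48 of H2-Aa on the same strand, and at -59 on the same and -35 on the opposite strand of H2-Eb1. Of all 32851 promoters in the table, 28.3% held GAGGAA and 37.4% held ATTGG. The 34 members in the table had 38 promoters, of which 20 (52.6%) held GAGGAA and 14 (36.8%) held ATTGG.

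The macrophage and MHC class II lists had the largest summed CPM in each group (see the heat map of all members). The lists differ in their number of genes, and the sums are not corrected for transcript length. Ptprc and the mast cell genes, not summed here, are given below. The 14 monocyte and macrophage members summed to 633 ± 136 CPM (SD, n = 4) in oral WT, 343 ± 27.2 (n = 2) in oral KO, 1684 ± 397 (n = 4) in pancreatic WT and 804 ± 306 (n = 3) in pancreatic KO tumors. The 5 MHC class II members summed to 232 ± 98.1, 73.2 ± 14.2, 202 ± 59.7 and 223 ± 101 CPM in the same order. T cell members reached 18.7 ± 6.82 CPM in oral WT tumors, most of it Cd4, and 9.59 ± 0.506, 3.82 ± 0.870 and 6.65 ± 2.54 CPM in the other groups. Neutrophil members summed to 12.3 ± 3.46, 17.8 ± 1.71, 41.2 ± 17.1 and 25.7 ± 15.8 CPM. The B and plasma cell members stayed between 3.60 and 6.23 CPM in group mean, the cytotoxic members between 0.754 and 2.42 CPM and the dendritic and Langerhans members between 0.739 and 2.36 CPM. Without Arg1, left out after its values were seen, the other 13 macrophage members summed to 551 ± 152, 204 ± 40.2, 587 ± 62.8 and 544 ± 260 CPM in the order given above, so that the excess of the pancreatic WT sum lay in Arg1. These lineage sums carry no test.

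Per kilobase of the longest transcript, Lyz2, the lysozyme of macrophages and neutrophils, was the highest member in oral WT tumors at 108 CPM per kb, followed by Cd74 at 75.7, C1qa at 72.7, C1qb at 70.6 and C1qc at 58.4 CPM per kb. In the other 3 groups Arg1, which encodes arginase 1 and is listed here with the macrophage genes, ranked 1. It stood at 93.7 CPM per kb in oral KO, 743 in pancreatic WT and 176 in pancreatic KO tumors. Which cells held the Arg1 transcript was not tested. At least 10 counts were reached in all 13 tumors by 26 members, and 9 members stayed below 1 CPM in every tumor. Cd8b1 and Ly6g, the neutrophil surface antigen, had at least 10 counts in fewer than 2 tumors and were filtered out of the main tests.

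**Figure D1:**
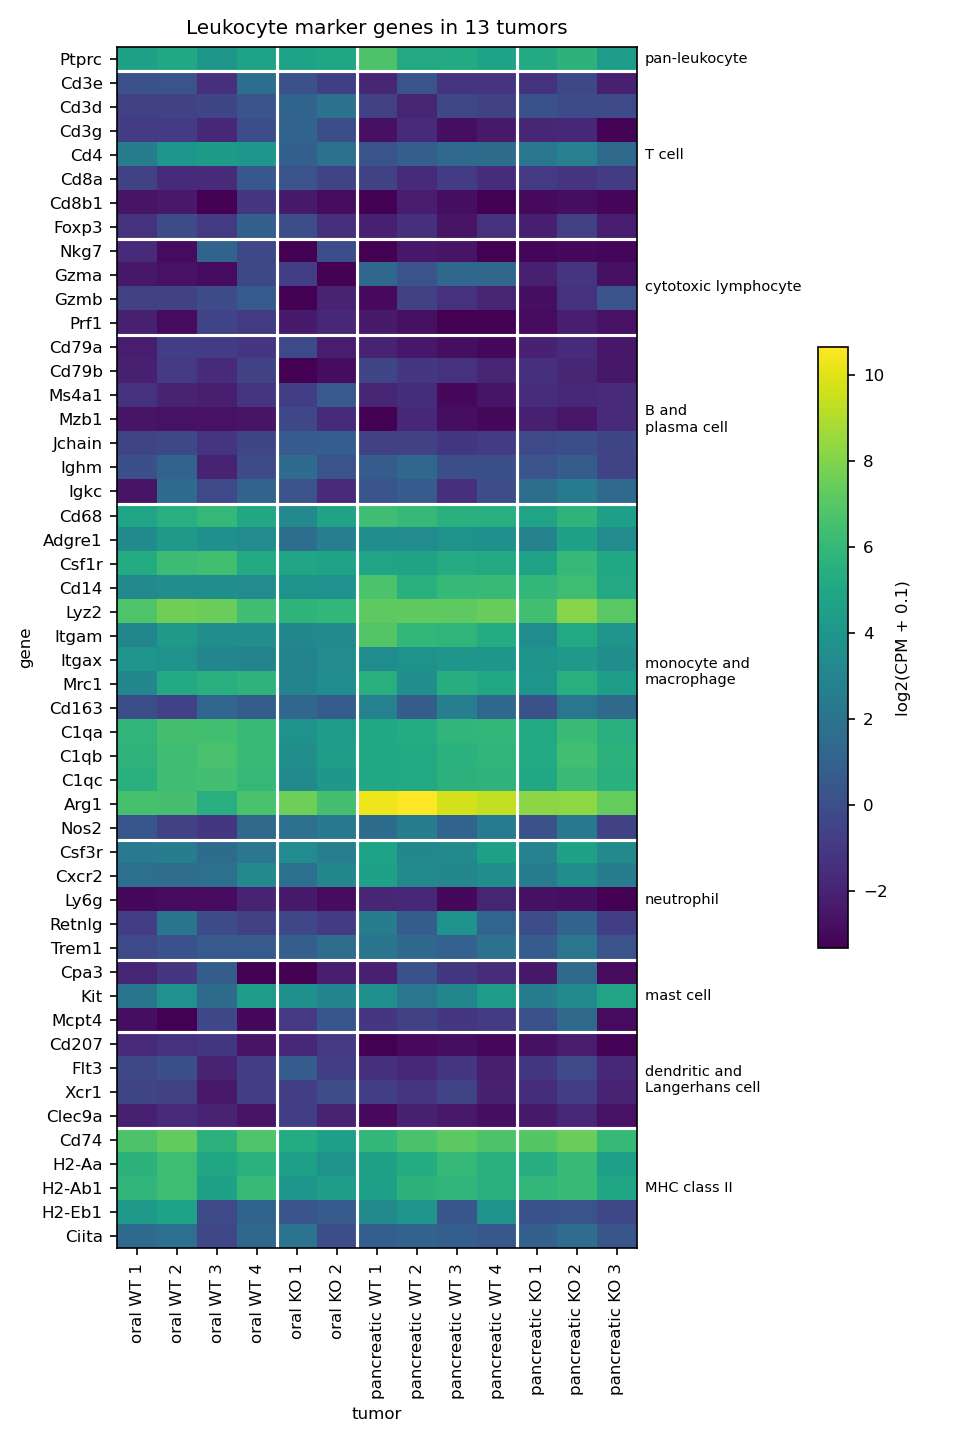
Level of each of the 50 leukocyte markers (rows, by lineage) in each of the 13 tumors (columns, by group), as log2 of CPM plus 0.1. Most macrophage and MHC class II rows are bright, but not Cd163, Nos2 and Ciita, nor H2-Eb1 in part of the tumors. Most lymphoid, mast cell and dendritic cell rows stay dark, with Kit an exception. C1qa, C1qb and C1qc dim in the 2 oral KO tumors and Arg1 is brightest in the 4 pancreatic WT tumors.

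Ptprc, which encodes the CD45 phosphatase found on all leukocytes, did not separate the genotypes. It stood at 25.3, 31.4, 16.9 and 27 CPM in oral WT tumors 1 to 4, 27.5 and 29.8 CPM in the oral KO tumors, 106, 35, 37.1 and 27 CPM in pancreatic WT tumors 1 to 4 and 37.4, 53.1 and 20.8 CPM in the pancreatic KO tumors. Pancreatic WT 1 stood far above every other tumor, and the remaining ranges overlapped. The log2 fold change of Ptprc, KO over WT, was 0.27 (SE 0.26, adjusted p = 0.48 by edgeR) in the oral and -0.46 (SE 0.53, adjusted p = 0.73 by edgeR) in the pancreatic tumors, and the latter turned to 0.16 without pancreatic WT 1.

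The first comparison asked which leukocyte genes differed between Sox2 KO and WT tumors of the oral mucosa. Of the 45 members tested, C1qa, C1qb, C1qc and Cd4 fell and Cd3d rose, against a background of 2.89% of the 22342 genes tested called lower and 8.81% called higher. The 3 C1q chains were lower by about 4- to 5-fold, in both KO tumors below all 4 WT tumors. The median log2 fold change over the 45 members was -0.35, beside -0.0030 over all genes tested, and 7 members were higher and 13 lower at an unadjusted p under 0.05.

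C1qa, the A chain, stood at 56.7, 92.7, 85.6 and 67.2 CPM in the oral WT tumors and read 13.9 and 20.1 CPM in the oral KO pair, a mean of 75.6 ± 16.5 (SD, n = 4) against 17 ± 4.41 (SD, n = 2). C1qb read 54.4, 81.6, 100.5 and 70.6 CPM in the WT and 11.7 and 22.3 CPM in the KO tumors. C1qc read 46.9, 81.4, 89.7 and 63.1 CPM in the WT and 9.72 and 17.4 CPM in the KO tumors. In all 3 genes the KO tumors lay below every WT tumor, with oral KO 1 the lowest of all 13 tumors. The log2 fold changes, KO over WT, were -2.07 (SE 0.29, adjusted p = 0.0183 by edgeR) for C1qa, -2.10 (SE 0.36, adjusted p = 0.0222) for C1qb and -2.29 (SE 0.37, adjusted p = 0.020) for C1qc, or 4.21-, 4.29- and 4.91-fold lower in the KO. The chains kept their proportions within a tumor, C1qb standing at 0.806 to 1.13 times C1qa per kb over the 13 tumors.

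**Figure D2:**
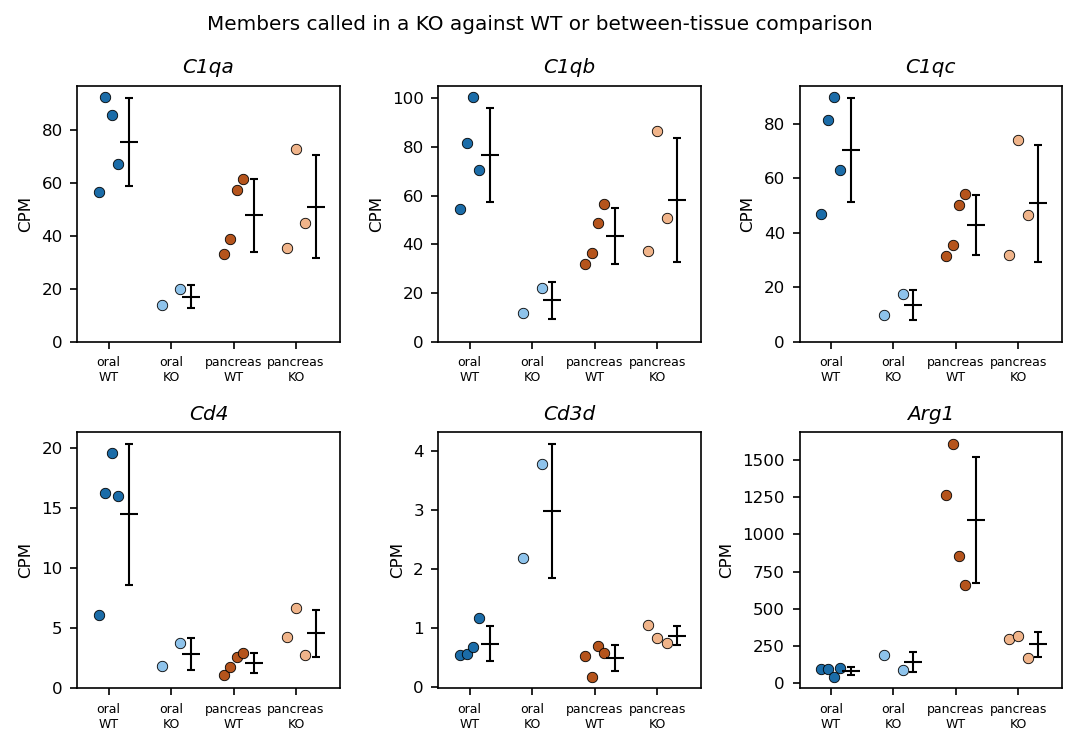
CPM (linear axis) of 6 members in the oral WT, oral KO, pancreatic WT and pancreatic KO tumors. Each point is 1 tumor and the bar beside each group is the mean with 1 SD (n = 4, 2, 4 and 3). The oral KO tumors lie below all oral WT tumors for C1qa, C1qb, C1qc and Cd4 and above them for Cd3d, and for Arg1 the pancreatic WT tumors, at 662 to 1608 CPM, lie above all other tumors.

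Other macrophage members were lower in the oral KO tumors without passing the test by edgeR, while DESeq2 called Adgre1, Lyz2 and Mrc1 among them lower. Adgre1, which encodes the F4/80 antigen, read 10.1, 18.7, 12.7 and 10.7 CPM in the WT and 3.18 and 6.16 CPM in the KO tumors (log2 fold change -1.39, SE 0.41, adjusted p = 0.0594 by edgeR). Csf1r, the receptor through which macrophages receive their survival signal, read 38.4, 76.2, 84.4 and 37.3 CPM against 29.5 and 27.6 CPM (log2 fold change -0.97, adjusted p = 0.135 by edgeR). Both genes were lower in each KO tumor than in each WT tumor. Cd68, a lysosomal glycoprotein of macrophages, read 28.1, 43.9, 62.5 and 31.6 CPM against 9.33 and 26.3 CPM (log2 fold change -1.15, adjusted p = 0.15 by edgeR). Mrc1, the mannose receptor, read 8.87, 36.6, 42.9 and 53.9 CPM against 7.74 and 11.2 CPM (log2 fold change -1.83, adjusted p = 0.114 by edgeR). In Mrc1, oral WT 1 fell between the KO tumors, which the other 3 WT tumors exceeded. Lyz2 was 82.1 to 194 CPM in the WT and 54.3 to 61.4 CPM in the KO tumors (log2 fold change -1.21, adjusted p = 0.0674 by edgeR).

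Of the 14 monocyte and macrophage members, 10 had a log2 fold change below 0, 3 were called lower and 0 higher, and their median was -1.06. The 4 above 0 were Cd14, Cd163, Arg1 and the inducible nitric oxide synthase Nos2, none of them called. Among 20 further macrophage genes outside the set, 6 were called lower and 0 higher, and all 20 had a log2 fold change below 0 (median -1.08). This list was also chosen with earlier results of these data known and was read in the same tumors, so that it is not independent support. Leaving out oral WT 2 or either KO tumor left 0 of the 20 called, and leaving out oral WT 1 left 1. Ctss, the cathepsin that trims the invariant chain, stood at 124 ± 21.6 CPM (SD, n = 4) in oral WT and 29.4 ± 2.73 (n = 2) in oral KO tumors (log2 fold change -1.99, SE 0.22, adjusted p = 0.0126 by edgeR). Aif1, which encodes the actin-binding IBA1, changed by -1.42 (adjusted p = 0.034) and Cybb, the catalytic subunit of the phagocyte NADPH oxidase, by -1.25 (adjusted p = 0.0359). Of 12 further pan-leukocyte genes 11 had a log2 fold change below 0 and 1 was called, the lysosomal Laptm5, at -1.46 (adjusted p = 0.0285 by edgeR). Laptm5 was called in 10 of 16 alternatives (adjusted p 0.000546 to 0.116) and lost its call without oral WT 1, oral WT 2 or either oral KO tumor, among protein-coding genes alone and with the replicate block. Ctss, Aif1 and Cybb were called in 12, 9 and 10 of the 16, and each lost its call without either oral KO tumor or oral WT 2.

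Of the 5 MHC class II genes, 4 had a log2 fold change below 0 in the oral KO tumors (median -1.52) and 0 were called by edgeR, while 3 were lower at an unadjusted p under 0.05 and DESeq2 called the same 3, Cd74, H2-Aa and H2-Ab1. Cd74 read 107, 157, 50.5 and 111 CPM in the oral WT and 38.4 and 23.9 CPM in the oral KO tumors (log2 fold change -1.68, SE 0.46, adjusted p = 0.0534 by edgeR). H2-Aa, the α chain of the I-A molecule, read 52.5, 80.2, 29.1 and 47.7 CPM in the WT and 23.9 and 14.6 CPM in the KO tumors (log2 fold change -1.36, adjusted p = 0.0708 by edgeR). H2-Ab1, its β chain, read 57.8, 77.9, 25.5 and 71.1 CPM in the WT and 15.9 and 22.2 CPM in the KO tumors (log2 fold change -1.52, adjusted p = 0.0614 by edgeR). In all 3 genes both KO tumors lay below the 4 WT tumors, of which oral WT 3 was the lowest. Ciita, the transactivator that switches on the class II genes, was not called, at 2.87, 3.35, 0.697 and 2.5 CPM in the WT and 3.87 and 0.897 CPM in the KO tumors. Its 2 KO values, from 39 and 23 counts, lay above all 4 WT tumors and below all of them but oral WT 3. Oral WT 3 was the lowest WT tumor for Ciita too, so that these values do not settle whether it moved with the class II genes.

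Among the T cell members, Cd4, the coreceptor for MHC class II that mouse helper T cells carry, fell in the oral KO tumors while Cd3d rose. Cd4 read 6.07, 16.2, 19.6 and 16 CPM in the oral WT and 1.89 and 3.78 CPM in the oral KO tumors (log2 fold change -2.26, SE 0.56, adjusted p = 0.0414 by edgeR). Cd3d, the δ chain of the T cell receptor complex, read 0.529, 0.554, 0.665 and 1.17 CPM in the WT and 2.18 and 3.78 CPM in the KO tumors (log2 fold change 2.10, SE 0.47, adjusted p = 0.0338 by edgeR). Neither pair of groups overlapped. Cd3e, the ε chain, is encoded beside Cd3d and read 0.993, 1.11, 0.285 and 3.19 CPM in the WT and 0.992 and 0.507 CPM in the KO tumors (log2 fold change -0.86, adjusted p = 0.536 by edgeR). Cd3g, the γ chain of the same cluster on chromosome 9, read 0.463, 0.431, 0.19 and 0.896 CPM against 2.08 and 0.936 CPM (log2 fold change 1.65, adjusted p = 0.12 by edgeR). Of the 3 CD3 chains, which are assembled into 1 complex, Cd3d and Cd3g had log2 fold changes above 0 and Cd3e below, and only Cd3d was called. In the oral KO tumors these values rest on 22 and 97 counts of Cd3d, 21 and 24 of Cd3g and 10 and 13 of Cd3e. Whether the chains differed from each other was not tested. Per kb Cd4 exceeded Cd3e by 1.56 to 56.5 times within the oral tumors. Cd8a, the coreceptor of cytotoxic T cells, read 0.552, 0.215, 0.222 and 1.31 CPM against 1.09 and 0.624 CPM, and Foxp3, the factor of regulatory T cells, 0.309, 0.831, 0.412 and 1.86 CPM against 0.893 and 0.273 CPM, with overlapping groups. In the further list of 24 T and NK cell genes, 19 were tested and edgeR called 0, with 0 higher and 0 lower at an unadjusted p under 0.05 and 0 called by DESeq2.

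No cytotoxic, B cell, neutrophil, mast cell or dendritic member was called in the oral comparison by edgeR. At an unadjusted p under 0.05, these 5 groups held 1, 3, 2, 0 and 0 members, and DESeq2 called 1 (Gzmb, lower), 1 (Jchain, higher), 0, 0 and 0. Nkg7, a granule protein of cytotoxic lymphocytes, read 0.221, 0.0308, 2.18 and 0.712 CPM in the oral WT and 0 and 0.897 CPM in the oral KO tumors. Cd79a, the signalling chain of the B cell receptor, read 0.11, 0.492, 0.443 and 0.367 CPM against 0.794 and 0.117 CPM, and Igkc, the κ light chain constant region that plasma cells transcribe at the highest rate, read 0.0662, 2.8, 0.76 and 2.04 CPM against 1.09 and 0.234 CPM. In each of these genes the groups overlapped at levels below 3 CPM. Ms4a1, which encodes CD20, had a log2 fold change of 2.14 (adjusted p = 0.0595 by edgeR) and Jchain, which joins polymeric antibodies, of 1.51 (adjusted p = 0.0574 by edgeR). Kit, the stem cell factor receptor that mast cells and other cells carry, read 4.28, 13.4, 3.01 and 20.1 CPM against 12.7 and 7.76 CPM, and Cpa3, the carboxypeptidase of mast cells, 0.176, 0.369, 1.61 and 0 CPM against 0 and 0.117 CPM. Flt3, the growth factor receptor of dendritic cells, read 0.706, 0.954, 0.158 and 0.482 CPM against 1.59 and 0.507 CPM and Cd207, the langerin of Langerhans cells, 0.221, 0.308, 0.38 and 0.0689 CPM against 0.198 and 0.39 CPM. None of these 4 genes separated the genotypes. Of 14 further neutrophil genes tested, 1 was called, the inflammatory cytokine Il1b, which rose from 2.81 ± 0.669 CPM (SD, n = 4) to 11.7 ± 0.216 CPM (SD, n = 2) (log2 fold change 2.13, adjusted p = 0.0189 by edgeR). The Il1b call was made in 10 of 16 alternatives (adjusted p 6.24e-07 to 0.143) and lost without oral WT 1, oral WT 2 or either oral KO tumor, among protein-coding genes alone and with the replicate block.

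The oral calls depended on single tumors. Without oral KO 1, oral KO 2 or oral WT 2, 0 members were called, without oral WT 1 only C1qa was called (lower), without oral WT 3 there were 0 higher and 5 lower members, and without oral WT 4 there were 2 higher and 4 lower members. Among protein-coding genes alone 0 members were called, whereas DESeq2 on all genes called 2 higher and 11 lower. Over all genes tested, those with an adjusted p under 0.05 by edgeR fell from 3080 to 70 without oral WT 1 and 36 without oral WT 2. They numbered 1463 and 2893 without oral WT 3 and oral WT 4, and 27 among protein-coding genes alone. The loss of calls was thus not particular to the leukocyte genes. Over the 16 alternatives of the oral comparison the log2 fold change of C1qa lay between -2.33 and -1.85 with adjusted p from 6.56e-08 to 0.0687, that of Cd4 between -2.83 and -1.81 (adjusted p 0.00058 to 0.161) and that of Cd3d between 1.69 and 2.50 (adjusted p 0.00422 to 0.16). Markers of other tissues also differed between the oral groups. All 12 skeletal muscle genes had a log2 fold change above 0 (median 3.43), with 1, Myh4, called higher, and their sum was 16.96 to 582 CPM in oral WT and 3108 and 5639 CPM in oral KO tumors. Muscle genes also stood at 582 CPM in oral WT 4, where the other 3 WT tumors had up to 29.5 CPM. Of 8 fibroblast genes 2 were called lower, Dcn at -3.40 (adjusted p = 0.0196 by edgeR) and Lum at -2.09 (adjusted p = 0.0347), their sum being 8711 to 19108 CPM in the WT and 9409 and 9486 CPM in the KO tumors, and of 8 squamous genes Krt15 was called lower at -3.11 (adjusted p = 0.0398). Myh4 was called in 9 of 15 alternatives, and Dcn, Lum and Krt15 in 12, 8 and 9 of 16, each of the 4 losing its call without oral WT 1 or oral WT 2. Their part in the leukocyte differences, like that of the low protein-coding share of oral KO 1, was not tested.

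The second comparison put the same question to the pancreatic tumors, where 0 of the 45 members tested were called by edgeR. Of the 24653 genes tested 0.337% were called higher and 0.292% lower. At an unadjusted p under 0.05, 2 members were higher and 5 lower, and DESeq2 called 1 higher, Igkc, and 5 lower, Arg1, Gzma, H2-Eb1, Itgam and Retnlg. The median log2 fold change over the members was 0.13, beside 0.022 over all genes tested.

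Arg1 came closest to the threshold together with Gzma, which encodes granzyme A. Arg1 read 1265, 1608, 856 and 662 CPM in the 4 pancreatic WT tumors and 299, 315 and 166 CPM in the 3 pancreatic KO tumors (log2 fold change -2.07, SE 0.37, adjusted p = 0.060 by edgeR). Gzma read 2.44, 1.08, 2.44 and 2.37 CPM against 0.131, 0.348 and 0.052 CPM (log2 fold change -3.56, SE 0.65, adjusted p = 0.060 by edgeR). All KO tumors lay below all WT tumors for both genes, a 4.2- and an 11.8-fold difference of the fitted levels. Itgam, the CD11b integrin chain of myeloid cells, read 121, 60.2, 56.9 and 38.7 CPM against 11, 36.3 and 15.2 CPM and likewise did not overlap (log2 fold change -1.72, adjusted p = 0.184 by edgeR). Of the 31-base sequences of Itgam, 68.3% also occur in another annotated gene, Gm49368, so that its count depends on how the authors' quantification divided the reads. Arg1 was called without pancreatic WT 4 and in 3 other alternatives, and over all 17 alternatives its adjusted p ranged from 3.97e-06 to 0.141. H2-Eb1 was called without pancreatic WT 3 and with DESeq2, and over all 17 alternatives its adjusted p ranged from 3.50e-05 to 0.248.

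The C1q genes and Cd4, which fell in the oral KO tumors, were not called in the pancreatic KO tumors and had log2 fold changes above 0 there. C1qa read 33.2, 39, 57.5 and 61.6 CPM in the pancreatic WT and 35.6, 72.8 and 45 CPM in the pancreatic KO tumors, with overlapping groups. C1qb read 31.8, 36.4, 49 and 56.7 CPM against 37.4, 86.5 and 50.6 CPM and C1qc 31.6, 35.5, 49.99 and 54.1 CPM against 31.8, 73.9 and 46.4 CPM. Pancreatic KO 2 was the highest pancreatic tumor for all 3 chains. The log2 fold changes, KO over WT, were 0.11 (SE 0.30) for C1qa, 0.43 (SE 0.31) for C1qb and 0.26 (SE 0.31) for C1qc, with adjusted p of 0.895, 0.547 and 0.735 by edgeR. The sign turned for C1qa without pancreatic WT 1 (-0.05) and without pancreatic KO 2 (-0.22), and for C1qc without pancreatic KO 2 (-0.11). Cd4 read 1.1, 1.81, 2.64 and 2.98 CPM in the WT and 4.3, 6.68 and 2.77 CPM in the KO tumors (log2 fold change 1.11, adjusted p = 0.245 by edgeR).

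Adgre1 at 11.5, 10.4, 13.6 and 13 CPM in the WT and 7.45, 25.1 and 10.7 CPM in the KO tumors, Csf1r at 28.4, 26.5, 38.4 and 35.5 against 26.9, 66.7 and 32.3 CPM, Cd68 at 82.6, 64.8, 46 and 43.4 against 28.7, 54.5 and 23.5 CPM and Mrc1 at 44.4, 12.3, 41.8 and 32.9 against 16.3, 44.7 and 22.3 CPM overlapped between the pancreatic genotypes. The same held for the class II genes Cd74, at 61.3, 101, 142 and 109 against 124, 175 and 64.6 CPM, H2-Aa, at 24.1, 40.1, 63.1 and 42.5 against 41.5, 71 and 23.2 CPM, H2-Ab1, at 23.6, 51.7, 56.5 and 44.9 against 61.7, 69.9 and 29.6 CPM, and Ciita, at 1.68, 2.07, 1.73 and 1.28 against 1.85, 3.12 and 1.25 CPM. Pancreatic KO 2 was the highest pancreatic tumor in Adgre1, Csf1r, Mrc1, Cd74, H2-Aa, H2-Ab1 and Ciita. Igkc, at 1.13, 1.56, 0.273 and 0.887 CPM in the WT and 3.16, 5.15 and 2.6 CPM in the KO tumors, was higher in each KO tumor (log2 fold change 1.93, adjusted p = 0.134 by edgeR). Of the further leukocyte genes outside the set, 93 of 114 were tested and 0 called by edgeR. At an unadjusted p under 0.05, 4 were higher and 2 lower, and DESeq2 called 1 higher and 1 lower. The B and plasma cell list, with 8 of 16 genes tested, held 2 of the 4 higher genes and the 1 that DESeq2 called higher. Its log2 fold changes ran from -1.23 to 3.56, with 6 above 0 and 2 below. Acinar genes summed to 265 CPM in pancreatic KO 3 and to 4.01 to 13.6 CPM in the other 6 pancreatic tumors, and their part in the leukocyte values was not tested.

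**Figure D3:**
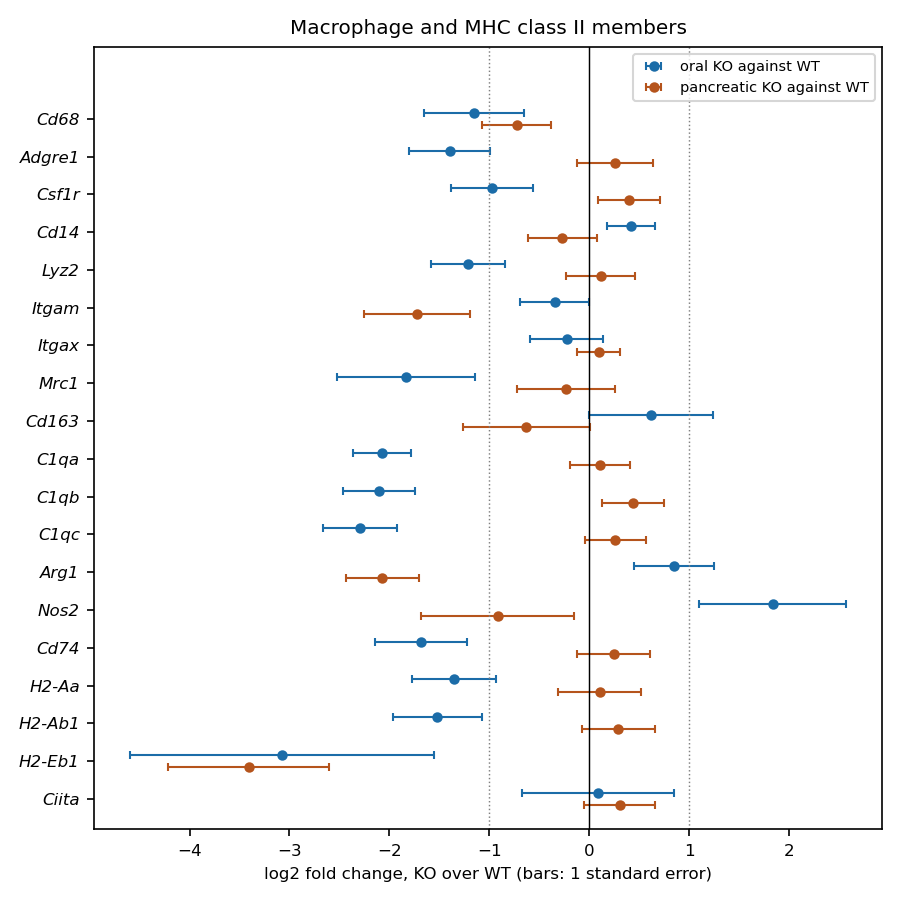
Log2 fold change, KO over WT, of the 14 macrophage and 5 MHC class II members in oral (blue) and pancreatic (orange) tumors. Bars are 1 standard error and the dotted lines mark a log2 fold change of 1 in either direction. The 3 C1q chains lie between -2.29 and -2.07 in the oral and between 0.11 and 0.43 in the pancreatic tumors, and Arg1 lies at 0.85 and -2.07.

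H2-Eb1, the β chain of the I-E molecule, behaved unlike the other class II genes. It read 18.8, 27.5, 0.76 and 2.16 CPM in the oral WT, 1.19 and 1.52 CPM in the oral KO, 9.87, 15.8, 1.23 and 14.4 CPM in the pancreatic WT and 1.05, 1.14 and 0.71 CPM in the pancreatic KO tumors. The tumors thus stood at 2 levels with nothing between 2.16 and 9.87 CPM. Oral WT 1 and 2 and pancreatic WT 1, 2 and 4 were at the upper level, and the other 3 WT tumors and all 5 KO tumors at the lower. Relative to H2-Aa per kb, H2-Eb1 stood at 65.6% to 78.9% in these 5 tumors and at 3.11% to 20.1% in the remaining 8. H2-Aa and H2-Ab1, whose ratio per kb lay between 0.247 and 0.566 in all 13 tumors, showed no such step. The KO against WT difference of H2-Eb1 was -3.08 (SE 1.52, adjusted p = 0.197 by edgeR) in the oral and -3.41 (SE 0.81, adjusted p = 0.107) in the pancreatic tumors. Both contrasts set WT groups that hold both levels against KO groups that hold 1.

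**Figure D4:**
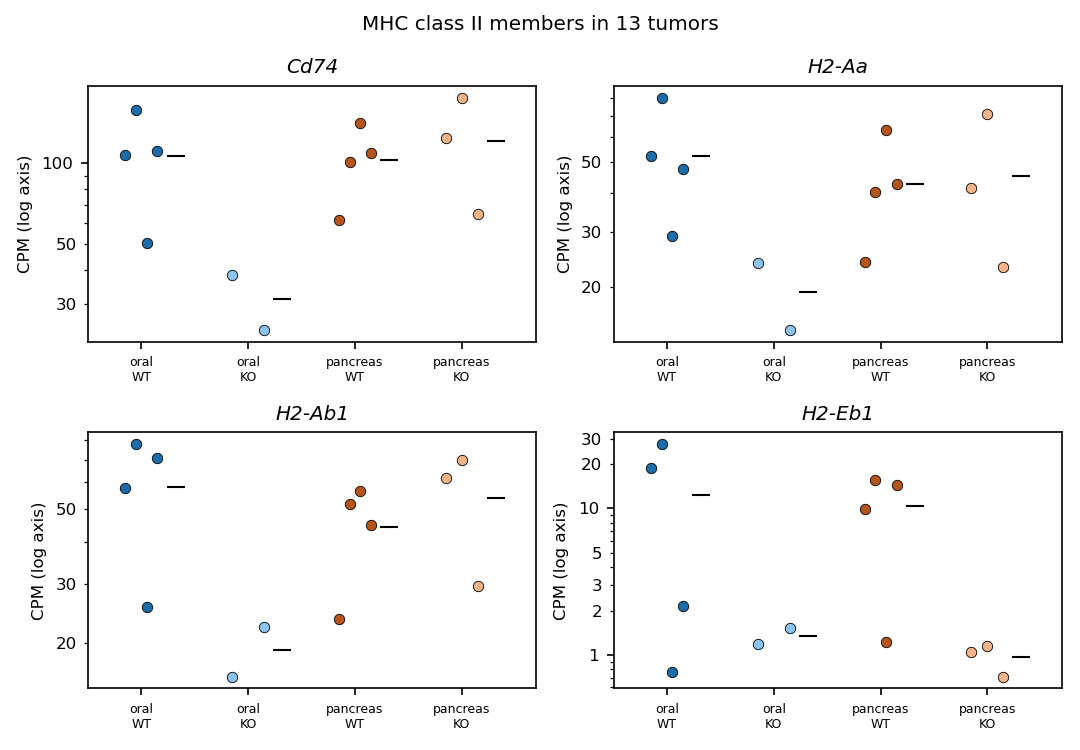
CPM (log axis) of 4 MHC class II members in the 4 groups of tumors. Each point is 1 tumor and the short bar is the group mean. Cd74, H2-Aa and H2-Ab1 vary together across tumors, whereas H2-Eb1 stands at 9.87 CPM or more in 5 WT tumors and at or below 2.16 CPM in the other 8.

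The third comparison, the difference between the tissues in the KO against WT change, tested the contrast between C1q in the 2 tissues directly in a fit of all 13 tumors. C1qa, C1qb, C1qc and Cd4 were called with a more positive change in the pancreas and Arg1 with a more negative one, 4 and 1 of the 48 members tested, beside 4.85% and 7.41% of the 25836 genes tested. The difference of the log2 fold changes, pancreatic minus oral, was 2.24 (SE 0.45, adjusted p = 0.0125 by edgeR) for C1qa, 2.59 (SE 0.51, adjusted p = 0.012) for C1qb and 2.60 (SE 0.51, adjusted p = 0.0116) for C1qc. These 3 calls held in all 22 alternatives, with adjusted p no higher than 0.0446. For Cd4 the difference was 3.43 (SE 0.74, adjusted p = 0.0149 by edgeR) and for Arg1 -2.83 (SE 0.58, adjusted p = 0.0136). The calls of Cd4 and Arg1 were lost only without oral KO 1, at adjusted p = 0.0547 and 0.0503, the highest of their 22 alternatives, while the lowest were 6.65e-05 and 0.000177.

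The log2 fold changes of Arg1 had opposite signs in the 2 tissues. It read 96, 91.7, 42.6 and 97.8 CPM in the oral WT and 186 and 90.8 CPM in the oral KO tumors and was not called there (log2 fold change 0.85, adjusted p = 0.177 by edgeR). Cd74, at 2.01 (adjusted p = 0.0529 by edgeR), and H2-Ab1, at 1.88 (adjusted p = 0.0622), missed the threshold for a difference between tissues, as did Adgre1 at 1.71 (adjusted p = 0.0686). DESeq2 called Cd74, H2-Ab1, Adgre1 and also Csf1r with a more positive change in the pancreas. Of the further macrophage genes 5 of 20 were called with a more positive change in the pancreas and 0 with a more negative one, among them Ctss at 2.33 (adjusted p = 0.00668 by edgeR), Ms4a7 at 1.52 (adjusted p = 0.0147) and Aif1 at 1.72 (adjusted p = 0.0184). Without oral KO 1 the count was 2 of the 20, and over all 22 alternatives it ran from 2 to 9, the 9 by DESeq2. Laptm5 among the pan-leukocyte genes, at 1.73 (adjusted p = 0.0257 by edgeR), and Irf8, a transcription factor of dendritic cells and macrophages, at 1.24 (adjusted p = 0.0425), went the same way. Laptm5 was called in 19 of the 22 alternatives and Irf8 in 9, and both lost the call without oral KO 1, without pancreatic WT 3 and among protein-coding genes alone. Irf8 also lost it without oral KO 2, oral WT 3, pancreatic WT 1, pancreatic WT 2 or any 1 of the pancreatic KO tumors. Il1b, at -2.97 (adjusted p = 0.0357 by edgeR), went the opposite way. Its call was made in 12 of the 22 alternatives (adjusted p 0.00539 to 0.0785) and lost without oral WT 1, 2 or 3, either oral KO tumor, pancreatic WT 1, pancreatic KO 1 or pancreatic KO 3, with the replicate block and without a count filter. Among other tissues, 2 of 12 muscle genes were called with a more negative change, Myh4 and Ckm, and 2 of 8 squamous genes, Krt5 and Epcam, and 2 of 8 fibroblast genes, Dcn and Lum, with a more positive one, and their part was not tested.

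The fourth comparison set pancreatic WT against oral WT tumors. Of the 46 members tested, 7 were called higher in the pancreas (Arg1, Cd14, Itgam, Csf3r, Cxcr2, Trem1 and Gzma) and 6 lower (Cd4, Cd3g, Foxp3, Nkg7, Cd79a and Cd207), beside 7.24% and 9.3% of the 23164 genes tested. By list, 3 of 14 macrophage and 3 of 4 neutrophil members tested were called higher and 0 lower. Of the T cell members 3 of 6 were called lower and 0 higher, and of 4 cytotoxic members 1 was called higher and 1 lower. The other lower calls were 1 of 6 B and plasma cell and 1 of 3 dendritic and Langerhans cell members. The median log2 fold change over the 46 members was -0.24, beside -0.0046 over all genes tested.

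The differences of the called members of the macrophage list were large, but the macrophage genes did not shift as a whole. Of the 14 monocyte and macrophage members, 8 had a log2 fold change above 0 and 6 below, with a median of 0.23. At an unadjusted p under 0.05 by edgeR, 5 were higher and 4 lower. Arg1 had a log2 fold change of 3.74, pancreas over oral (SE 0.38, adjusted p = 0.000709 by edgeR), or 13.4-fold, from the values given above. Cd14, the lipopolysaccharide coreceptor of monocytes, read 9.49, 11.7, 12.3 and 10.4 CPM in the oral WT and 103, 43.4, 65.1 and 70.8 CPM in the pancreatic WT tumors (log2 fold change 2.68, SE 0.25, adjusted p = 0.000562 by edgeR), with 14.2 and 13.5 CPM in the oral KO and 59.8, 79.97 and 34.5 CPM in the pancreatic KO tumors. Every pancreatic tumor of either genotype thus exceeded every oral tumor. Itgam read 8.52, 18.5, 11.6 and 11.8 CPM in the oral and 121, 60.2, 56.9 and 38.7 CPM in the pancreatic WT tumors (log2 fold change 2.46, SE 0.38, adjusted p = 0.00324 by edgeR), the oral KO tumors reading 8.83 and 9.9 CPM.

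The 3 neutrophil members called also stood higher in the pancreas. Csf3r, the G-CSF receptor, read 5.23, 6.06, 3.01 and 4.48 CPM in the oral WT and 27.9, 8.91, 10.3 and 24 CPM in the pancreatic WT tumors (log2 fold change 1.92, SE 0.41, adjusted p = 0.0113 by edgeR), with 10.6 and 6.55 CPM in the oral KO and 7.21, 25.5 and 9.97 CPM in the pancreatic KO tumors. Cxcr2, the receptor that guides neutrophils to CXC chemokines, read 3.38, 3.11, 3.51 and 9.28 CPM against 25.8, 10.02, 8.59 and 12.1 CPM (log2 fold change 1.55, adjusted p = 0.0453 by edgeR), with 3.37 and 8.85 CPM and 5.98, 11.8 and 5.99 CPM in the KO groups. Trem1, an amplifying receptor of myeloid cells, read 0.75, 1.05, 1.39 and 1.45 CPM against 4.15, 2.49, 1.98 and 3.79 CPM (log2 fold change 1.42, adjusted p = 0.0188 by edgeR), with 1.79 and 3.08 CPM and 1.55, 4.42 and 1.09 CPM in the KO groups. For Csf3r and Trem1 the WT groups did not overlap, whereas for Cxcr2 oral WT 4 stood above pancreatic WT 3. Retnlg, a resistin-like product of neutrophils, read 0.485, 4.25, 0.855 and 0.528 CPM in the oral WT, 0.695 and 0.468 CPM in the oral KO, 5.88, 1.64, 14.3 and 2.29 CPM in the pancreatic WT and 0.883, 2.1 and 0.502 CPM in the pancreatic KO tumors, and was not called (log2 fold change 1.99, adjusted p = 0.154 by edgeR). Ly6g was at 7 counts or fewer in every tumor. The list of bone marrow and red cell genes summed to 668 to 1073 CPM in the pancreatic WT tumors. It summed to 1269 CPM in oral WT 2 and to 24.1 to 62.1 CPM in the other 3 oral WT tumors. These sums were mostly 1 gene, the granule protein Ltf, with 28580 to 43129 counts in the pancreatic WT tumors and 41059 in oral WT 2. Mpo and Camp, other granule genes of the list, had at most 20 and 2 counts in the pancreatic WT tumors. The part of these genes in the neutrophil difference was not tested.

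**Figure D5:**
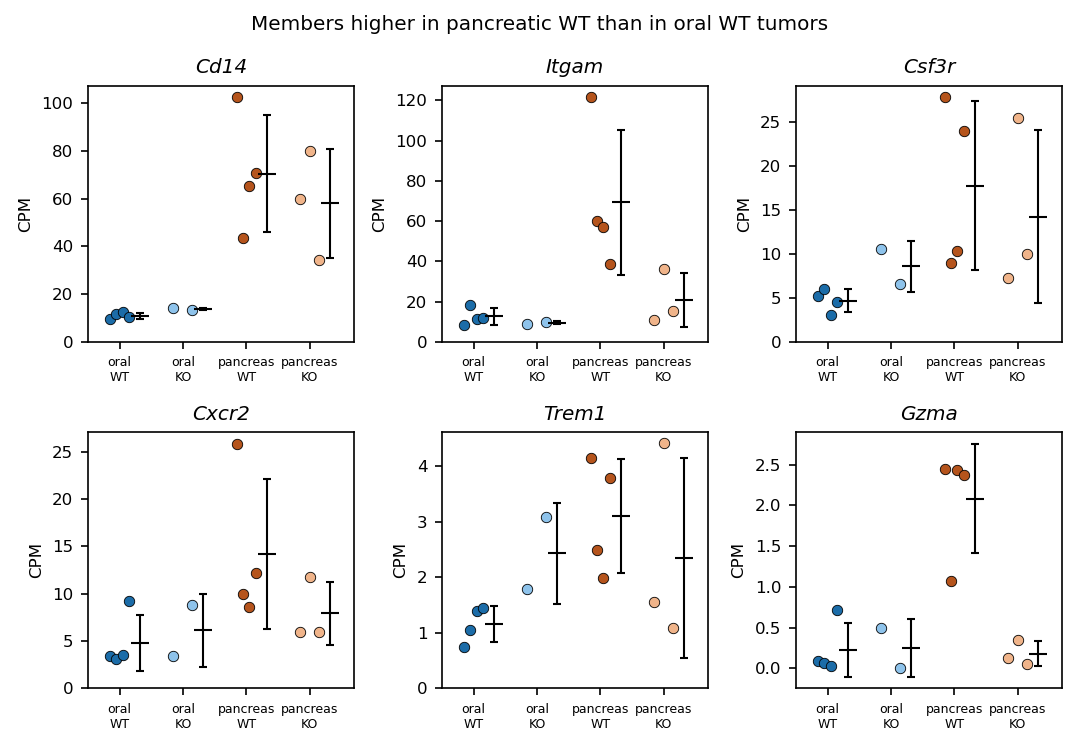
CPM (linear axis) of 6 of the 7 members called higher in pancreatic WT than in oral WT tumors, in all 4 groups. Each point is 1 tumor and the bar beside each group is the mean with 1 SD (n = 4, 2, 4 and 3). Cd14 is higher in all pancreatic tumors than in all oral tumors, and for Itgam and Gzma the pancreatic KO tumors lie below the pancreatic WT tumors.

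Several lymphoid members were lower in the pancreatic WT tumors. Cd4 had a log2 fold change of -2.76 (SE 0.43, adjusted p = 0.00298 by edgeR), with all pancreatic WT tumors below all oral WT tumors. Cd3g read 0.0525, 0.226, 0.0456 and 0.0986 CPM in the pancreatic WT and 0.184, 0.191 and 0.00866 CPM in the pancreatic KO tumors (log2 fold change against oral WT -2.24, adjusted p = 0.034 by edgeR), and Foxp3 read 0.131, 0.283, 0.0684 and 0.296 CPM and 0.122, 0.516 and 0.113 CPM (-2.13, adjusted p = 0.0495). Neither gene exceeded 0.516 CPM in any pancreatic tumor, so that these folds rest on few reads. Cd79a read 0.157, 0.0849, 0.0456 and 0.0246 CPM in the pancreatic WT and 0.14, 0.235 and 0.0866 CPM in the pancreatic KO tumors (log2 fold change against oral WT -2.14, adjusted p = 0.0457 by edgeR). Nkg7 had 111 counts over the 4 oral WT and 6 over the 4 pancreatic WT tumors (0, 3, 3 and 0), a ratio of counts per total of 22.99 with an exact 95% interval of 10.2 to 64.0, and 69 of the 111 came from oral WT 3. Cd207 had 35 and 4 counts, a ratio of 10.9 (exact 95% interval 3.89 to 42.1). These intervals cover counting error only, and both genes were called by edgeR (adjusted p = 0.0451 and 0.0211). In the pancreatic KO tumors Nkg7 read 0.0175, 0.0224 and 0.0173 CPM and Cd207 0.0524, 0.112 and 0.00866 CPM.

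Gzma ran against the other cytotoxic members, at 0.0882, 0.0615, 0.0317 and 0.712 CPM in the oral WT, 0.496 and 0 CPM in the oral KO and the values given above in the pancreas (log2 fold change 3.15, SE 0.83, adjusted p = 0.0257 by edgeR). The other T cell genes with values in every tumor, Cd3e at 0.184, 1.08, 0.342 and 0.345 CPM in the pancreatic WT and 0.315, 0.718 and 0.139 CPM in the pancreatic KO, Cd3d at 0.525, 0.17, 0.684 and 0.567 and 1.05, 0.818 and 0.736 CPM and Cd8a at 0.577, 0.226, 0.433 and 0.246 and 0.411, 0.336 and 0.459 CPM, were not called between the tissues. Cpa3 at 0.131, 1.05, 0.387 and 0.246 and 0.0874, 2.75 and 0.0347 CPM, Kit at 12.7, 4.41, 8.41 and 20.1 and 5.96, 9.85 and 29 CPM and Flt3 at 0.262, 0.198, 0.365 and 0.123 and 0.385, 0.751 and 0.191 CPM were not called either. C1qb had an adjusted p of 0.0325 by edgeR with a log2 fold change of -0.82, short of the fold required, and the 5 class II members were not called.

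Further T and NK cell genes went the same way as Cd4, 7 of 20 tested being called lower and 0 higher in the pancreas with a median of -2.08. The count was 4 without pancreatic WT 1 or pancreatic WT 4, 3 with at least 10 counts in every tumor, and between 3 and 9 over the 18 alternatives. The interleukin-2 receptor chain Il2rb changed by -3.10 (adjusted p = 0.00164 by edgeR), the T cell kinase Lck by -2.36 (adjusted p = 0.0051) and the T cell receptor constant gene Trac by -3.52 (adjusted p = 0.00932). Trac did not follow Cd3e over oral WT tumors 1 to 4, with 1365, 1276, 2120 and 777 counts against 45, 36, 9 and 139. It was highest where Cd3e was lowest and lowest where Cd3e was highest, and the reason was not tested. Of 20 further macrophage genes, 17 had a log2 fold change below 0 and 3 above, with a median of -0.64. At an unadjusted p under 0.05 by edgeR, 11 were lower and 1 higher. Of the 20, 4 were called lower and 1 higher, among the lower Mertk, a receptor for the uptake of dead cells, at -1.72 (adjusted p = 0.0035 by edgeR), Ly6c2, the Ly6C antigen of monocytes, at -3.13 (adjusted p = 0.00622) and Aif1 at -1.04 (adjusted p = 0.00928). Without pancreatic WT 1 or pancreatic WT 2 only 2 of these genes were called lower, Aif1 being among those lost. Of 14 further neutrophil genes tested 3 were called higher, including Il1b at 2.50 (adjusted p = 0.00565 by edgeR) and Clec4d at 1.95 (adjusted p = 0.00696), and 1 lower, the gelatinase Mmp9, at -4.91 (adjusted p = 0.00223). Irf8 at -1.02 (adjusted p = 0.0114 by edgeR) and H2-Oa at -1.87 (adjusted p = 0.0214) were the 2 of 13 dendritic cell and class II genes called, both lower. Irf8 was called in 15 of 18 alternatives and H2-Oa in 12 of 17, and both lost the call without pancreatic WT 2. No gene of the further B and plasma cell list or mast cell, basophil and eosinophil list was called by edgeR in any of the 4 comparisons, while 7 and 10 of their 33 and 36 tests had an unadjusted p under 0.05 and DESeq2 called 3 and 4.

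The tissue comparison also rested on several tumors. Leaving out oral WT 1, 2, 3 or 4 left 5, 5, 7 and 8 members called higher and 6, 2, 5 and 3 lower, and leaving out pancreatic WT 1, 2, 3 or 4 left 4, 7, 5 and 5 higher and 3, 3, 2 and 3 lower. Arg1, Cd14, Itgam, Csf3r and Cd4 were called in all 18 alternatives, while Cd79a was called in 8 of 17, Nkg7, Cd207, Cd3g and Foxp3 in 9, 15, 10 and 9 of 17, Gzma in 12 of 17, and Cxcr2 and Trem1 in 9 and 15 of 18. Fibroblast genes were lower in the pancreatic WT tumors in 7 of 8 cases, among them Dcn, Pdgfra and Col1a1, with sums of 1142 to 2233 CPM against 8711 to 19108 CPM in oral WT tumors. Squamous genes were higher in 5 of 8 cases, among them Epcam, Col17a1 and Dsg3, and lower in 1, with sums of 9572 to 16850 CPM against 4790 to 8867 CPM. Muscle genes were called lower in 3 of 11 cases (Tnni2, Ttn and Neb), 1 of 7 acinar genes (Cela1) was called higher and 1 of 8 endothelial genes (Tek) lower. Salivary gland genes, genes of lymphoid tissue stroma and genes of bone marrow and red cells had no call by edgeR in any of the 4 comparisons, with 0, 0 and 6 tests at an unadjusted p under 0.05 and 0, 0 and 2 calls by DESeq2. Whether any of these tissues took part in the leukocyte differences was not tested.

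The remaining 16 members were given no call by edgeR in any comparison. Of the lymphoid genes among them, Cd8b1, the cytotoxic effectors Gzmb and Prf1, the B cell genes Cd79b, Ms4a1, Mzb1 and Jchain stayed between 0 and 1.68 CPM in every tumor, and Ighm, the μ heavy chain, between 0.158 and 2.88 CPM. Mcpt4, a mast cell protease, ranged from 0 to 2.78 CPM, and Xcr1 and Clec9a, which mark cross-presenting dendritic cells, did not exceed 0.897 and 0.496 CPM. Among the myeloid genes, the hemoglobin scavenger receptor Cd163 ranged from 0.554 to 6.87 CPM, Nos2 from 0.38 to 5.74 CPM, the CD11c integrin chain Itgax from 7.67 to 18.9 CPM and Lyz2 from 54.3 to 272 CPM over the 13 tumors, the highest value of Lyz2 being that of pancreatic KO 2. Lyz2 shares 32.8% of its 31-base sequences with Lyz1, a near copy, and its level carries that uncertainty. Of these 16 members, DESeq2 called Cd163 and Nos2 higher in the pancreatic than in the oral WT tumors. In the oral KO against WT comparison it called Lyz2 and Gzmb lower and Jchain higher.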

How the data were processed

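RNA was measured by bulk RNA-seq (ribosomal RNA depleted) in 13 mouse tumors. The authors trimmed reads with Trim Galore 0.6.10 (quality reports by FastQC 0.12.1), estimated transcript abundance with kallisto 0.50.0 and the stranded option on GENCODE M23, and deposited estimated counts per gene, summed with tximport. Of these values 27.3% were not whole numbers, and all were rounded here. DESeq2 is also named in the submitters' processing notes. Annotation here was GENCODE M21 (GRCm38).

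Groups followed the labels: oral WT (n = 4), oral KO (n = 2), pancreatic WT (n = 4) and pancreatic KO (n = 3). The 4 comparisons were fitted in R 4.3.3 with edgeR 4.0.16 (TMM, robust quasi-likelihood test, Benjamini-Hochberg over all genes tested) on genes that reached 10 counts in 2 or more of the tumors fitted. Calls needed an adjusted p below 0.05 together with a log2 fold change beyond 1 in either direction. The SE is the log2 fold change divided by the root of F. The fit was tested on simulated data with known changes. Totals of 11735315 to 120482829 counts set the precision, and intervals and the floor of 3 counts cover counting error only. Nothing in the labels says that tumors of a group were processed independently, so p-values measure the spread between these tumors, each 1 library.

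The members and all lists were chosen with earlier results of these data known. Values in every tumor are given for members called in any comparison, for class II members and for 18 named lineage genes, and of each further list at most the 3 called genes with the smallest adjusted p per comparison are named. The other members are given by range, or by value where the text turned on them. Alternatives were other size factors, other count filters, no robust step, DESeq2 1.42.0 with and without apeglm 1.24.0, 1 fit of all tumors, protein-coding genes alone, thinned counts, a replicate block and each tumor left out.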

Additional observations from a re-analysis of the deposited data

Results flagged for a closer look

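The change between Sox2 KO and WT differed between the tissues, by the test of that difference in edgeR, for 5 members. It was more positive in the pancreas by 2.24 (log2) for C1qa, 2.59 for C1qb, 2.60 for C1qc and 3.43 for Cd4, and for Arg1 the difference was -2.83. The oral arm of each rests on 2 KO tumors.

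Single tumors stood apart in 6 of 84 groups of 4 tumors tested by Dixon's criterion, where chance flags about 1 in 20. Pancreatic WT 1 held Ptprc at 106 CPM, pancreatic WT 2 held Gzma at 1.08 CPM, oral WT 2 held Retnlg at 4.25 CPM and oral WT 3 held Arg1 at 42.6 CPM. Oral WT 4, the WT tumor with 582 CPM of muscle genes, held Cxcr2 at 9.28 CPM and Gzma at 0.712 CPM. Ptprc, Retnlg, Cxcr2 and the oral Gzma value were the highest of their groups, and Arg1 and the pancreatic Gzma value the lowest.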

How the results depend on the processing

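For the numbers of members called higher and lower in the 4 comparisons, 102 of 146 alternative counts stayed within 1.5 times the reported count and 44 did not. In the oral comparison (1 higher, 4 lower), there were 2 higher with at least 10 counts in every tumor, 2 higher and 11 lower with DESeq2 (the same with and without apeglm), 3 higher and 9 lower in 1 fit of all 13 tumors, and 0 higher and 0 lower among protein-coding genes alone. In the pancreatic comparison (0 and 0), there was 1 lower without a count filter and with thinned counts, and 1 higher and 5 lower with DESeq2. Between the WT tissues (7 and 6), 1 was lower with at least 10 counts in every tumor and 3 in 1 fit of all tumors. For the difference between tissues (4 and 1), DESeq2 gave 8 higher. Leaving out 1 tumor at a time gave 0 to 2 higher and 0 to 5 lower in the oral, 0 higher and 0 to 1 lower in the pancreatic, 4 to 8 higher and 2 to 6 lower in the WT comparison, and 3 to 6 higher and 0 to 3 lower for the difference between tissues. The causes were not tested.

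Pairing by tumor number was not seen, except between the pancreatic tumors numbered 1. Same-numbered oral tumors correlated in their deviations at -0.080 and -0.038, pancreatic tumors at 0.317, -0.025 and -0.069, and WT tumors of the tissues at -0.073 to 0.028. With the tumor number as a replicate block, 0 higher and 0 lower members were called in the oral, 0 and 1 in the pancreatic, 6 and 4 in the WT comparison, and 4 and 1 for the difference. Over all genes tested, the block raised those with an adjusted p under 0.05 by edgeR from 174 to 730 in the pancreatic comparison. It lowered them from 3080 to 65 in the oral and from 5482 to 3690 in the WT comparison, and from 3960 to 1629 for the difference.

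Of 1978 alternative values of single genes, 1643 kept direction and side of the threshold, 256 lost the call, 74 gained it and 5 changed sign, none of these called. All 5 were pancreatic: C1qa was -0.05 without pancreatic WT 1 and -0.22 without pancreatic KO 2, C1qc -0.11 and Cd74 -0.11 without pancreatic KO 2, and Ptprc 0.16 without pancreatic WT 1. With each tumor left out in turn, their values ran from -0.22 to 0.32 (C1qa), -0.11 to 0.51 (C1qc), -0.11 to 0.55 (Cd74) and -0.81 to 0.16 (Ptprc). The median of all genes moved to -0.107 (oral) and 0.215 (difference) without a count filter. Of 108 alternative lineage sums, 11 moved by more than 1 SD, among them the macrophage sum of the oral KO tumors, 343 CPM over all genes and 502 CPM over protein-coding genes alone. Depth limits the oral KO tumors most: in oral KO 1, 3 counts equal 0.256 CPM.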

Other observations

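H2-Eb1 stood at an upper level in WT tumors of both tissues and at a lower level in tumors of both tissues and genotypes. The genes most like H2-Eb1 were sought after this was seen. Among 18056 genes above 2 CPM in some tumor, those with the highest Pearson correlation with H2-Eb1 over the 13 tumors, on log2 of CPM plus 0.5, were Gm11127 (r = 0.87), Cd320 (0.82), March6 (0.77), BC051226 (0.77) and Gast (0.75). Gm11127 (chr17:36055816-36058371, GRCm38), Cd320 (chr17:33843091-33849774) and BC051226 (chr17:33908044-33909317) lie on the chromosome of H2-Eb1 (chr17:34305867-34316674). Of the 20 genes most like H2-Eb1, 5 lie on chromosome 17, against 4.69% of the genes compared. All genes compared share the same 13 libraries, and these values are a description without a test.

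All 4 neutrophil members and all 14 further neutrophil genes tested lay below 0 in the pancreatic KO against WT comparison, with medians of -0.61 and -0.78, and edgeR called 0, with 1 and 0 lower at an unadjusted p under 0.05 and 1 member (Retnlg) called by DESeq2.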
